A study of Mus musculus with 7 samples.

Results

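Glycolysis and the pentose phosphate pathway were followed in naive CD4 T cells through 35 genes, matched by gene symbol to the deposited gene table. The list runs from glucose transporters to lactate exporters and includes the enzymes of both pentose phosphate branches, the kinases that gate pyruvate entry into mitochondria, and the transcription factor gene Hif1a. All 35 symbols were found once among 34745 rows, and all 35 genes were among the 12668 genes with enough counts to be tested.

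The study compared the RNA of spleen naive CD4 T cells, helper T cells that have not met their antigen, from 8-week-old male C57BL/6 mice. The wild-type (WT) group held 3 libraries, and the other group held 4 libraries from heterozygous PIK3CD GOF mice, which carry a gain-of-function allele of the gene for p110delta, the catalytic subunit of phosphoinositide 3-kinase in leukocytes. Controls were littermates, no treatment was given, and cells were taken directly from the spleen by negative selection, so no culture or stimulation lies between animal and RNA. The labels name no promoter or Cre driver, and the amino acid change of the allele is not given in the sources used here. Library totals lay between 14497957 and 16293539 counts, and values below are CPM, counts per 1000000 counts on TMM-scaled totals (trimmed mean of M values).

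As background, glycolysis splits glucose into pyruvate in the cytosol, and the pentose phosphate pathway branches off at glucose 6-phosphate to make NADPH and ribose. Resting T cells run glycolysis at a low rate and raise it after activation, when phosphoinositide 3-kinase, AKT and mTORC1 signalling increase glucose uptake, MYC and HIF-1alpha raise transcription of the enzymes, and pyruvate is largely turned to lactate. HIF-1alpha protein is degraded when oxygen is plentiful, and it binds DNA at sites with the letters ACGTG or GCGTG.

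The Pik3cd transcript itself was lower in the GOF libraries. WT replicates 1 to 3 had 938, 1511 and 959 CPM, and GOF replicates 1 to 4 had 543, 762, 538 and 765 CPM, with no overlap between groups. On the log2 scale GOF minus WT was -0.80, called the log2 fold change below (standard error SE 0.20, adjusted p = 0.0154 by the edgeR quasi-likelihood test with Benjamini-Hochberg adjustment over all genes tested), and gene counts do not show which allele was transcribed. Without GOF replicates 1 and 3, the lowest for this gene, it was -0.58 at an adjusted p of 0.106. CD4 T cell markers were high everywhere, with a summed level of 7035 to 7997 CPM in WT and 7251 to 8170 CPM in GOF, and of these 10 genes 3 were called higher and 3 lower, with Il7r the lowest at a log2 fold change of -1.01. Markers of other cells were higher in GOF: 12 of 15 macrophage and monocyte rows, 9 of 10 tested neutrophil genes, 6 of 10 B cell genes, 8 of 8 NK cell genes and 5 of 8 tested red cell precursor genes passed the test upwards, while the CD8 T cell markers Cd8a and Cd8b1 had log2 fold changes of -0.78 and -0.23 and were not called. Their sums were 44.8 to 86.9 against 159 to 512 CPM for macrophages, 0.766 to 10.6 against 63.2 to 231 CPM for neutrophils, 357 to 448 against 686 to 1116 CPM for B cells, 23.9 to 26.4 against 76.1 to 112 CPM for NK cells and 8.01 to 24.3 against 24.9 to 98.6 CPM for red cell precursors. Platelet markers overlapped between groups, at 13.6 to 14.9 CPM in WT and 8.94 to 22.2 CPM in GOF, with 2 of 4 tested genes higher. Markers at 0 counts in all WT libraries included Mertk, Camp, Car1, Slc4a1, Gp9 and Gp1bb. GOF replicates 1 and 3 held the most of these markers, and the member genes that lost their call without these libraries are named below with their values. In bulk RNA, fewer cells of a type and less RNA per cell cannot be told apart.

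The pathway was lower in GOF at a few steps and showed no gene past the test in the other direction. Of the 35 genes, 7 (20.0%) fell at an adjusted p under 0.05: Gpi1, Pfkl, Pfkfb4, Aldoa, Eno1, Pdk2 and Hif1a. Over all tested genes 31.3% were called, 16.8% higher and 14.5% lower, so the share of members called lay below that of all genes and the share called lower lay above it. Of all genes, 2130 were higher and 1838 lower, a split that became 2527 and 1428 when libraries were scaled by total counts alone, without changing the 7 members called lower. No member was called higher by DESeq2 or by edgeR with TMM scaling and all libraries. Pgd was the 1 member higher at an unadjusted p under 0.05. It was called higher by limma on log2(FPKM + 1) and by edgeR with total-count or upper quartile scaling or without WT replicate 1. Without WT replicate 2, edgeR called Pfkp and Slc16a3 higher. At an unadjusted p under 0.05 9 members were lower, the 7 named and the transporter gene Slc2a3 and the isomerase gene Tpi1, and DESeq2 called those 9. At that unadjusted p, 25.7% of the members were lower and 2.86% higher, beside 20.0% and 22.5% of all genes. The median log2 fold change of the members was -0.12, beside 0.0061 for all genes tested, and single values ran from -1.57 for Eno1 to 0.41 for Pfkfb3, with 14 positive and 21 negative.

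The GOF libraries were entirely below the WT libraries for 7 members, and for no member did they lie above, while 39.8% of all tested genes showed no overlap, 21.5% with GOF above and 18.2% with GOF below. The 7 genes without overlap were those that passed the test. A fall of at least 2-fold was measured for 2 members, Eno1 and Hif1a (5.71%, beside 5.03% of all genes). The members together made up 0.293% to 0.379% of the summed FPKM (fragments per kilobase and 1000000 counts, a level per length) in WT and 0.252% to 0.270% in GOF.

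**Figure D1:**
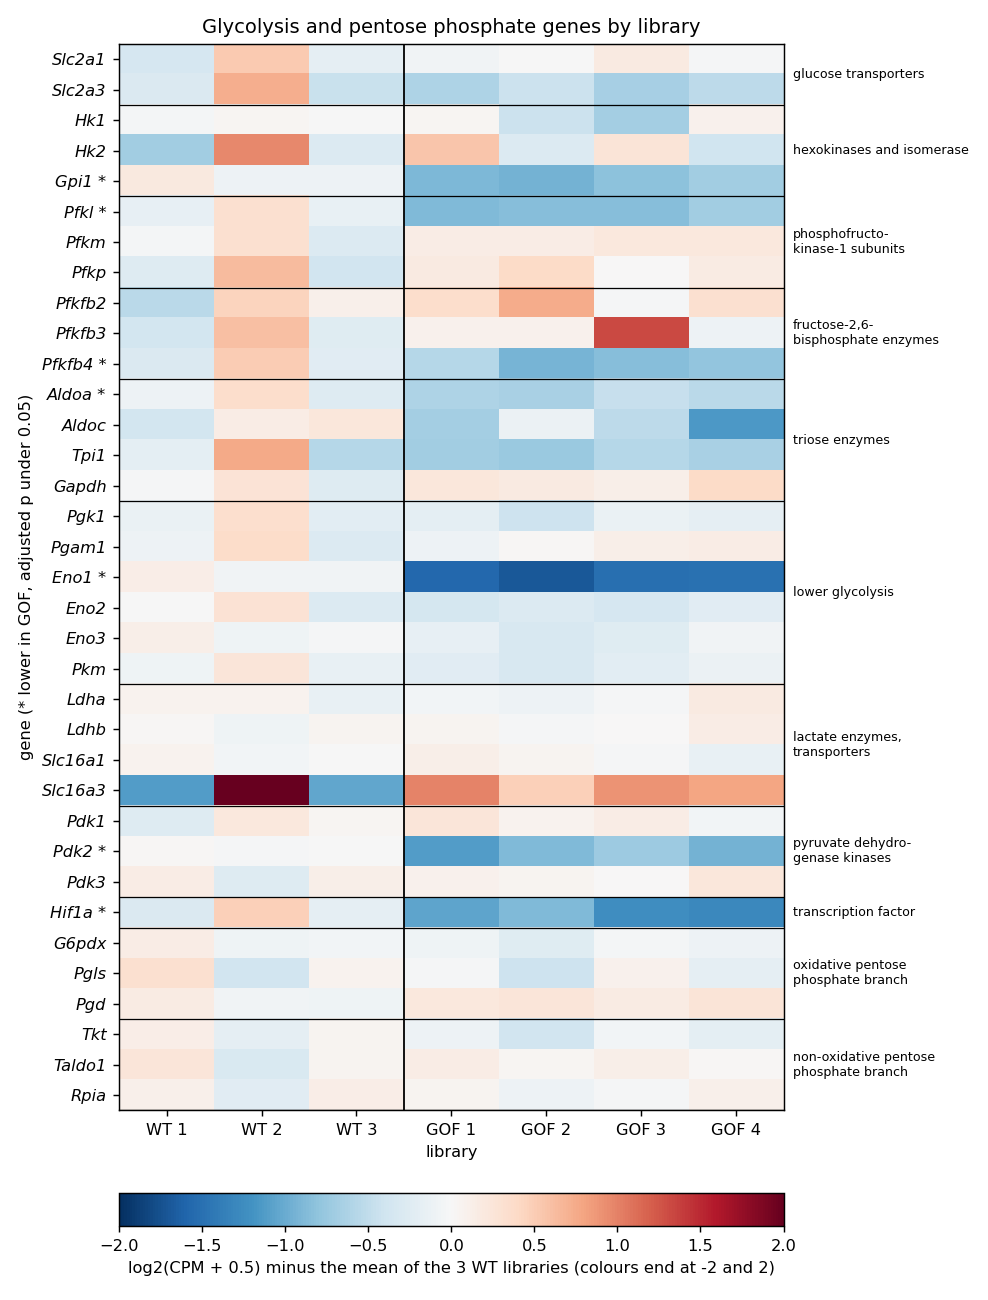
Level of each of the 35 genes in each library (columns), as log2(CPM + 0.5) minus the mean of the 3 WT libraries, with genes in rows grouped by role and an asterisk on the 7 that fell. The 7 marked rows are blue in every GOF column, Eno1 most of all, while WT 2 is red for many genes of the upper pathway.

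Levels per length differed widely between the genes. In WT libraries 5 members had a mean under 1 FPKM (Eno2, Hk2, Aldoc, Pfkfb2 and Slc16a3), 13 lay between 1 and 10 FPKM, 10 between 10 and 50 FPKM and 7 at 50 FPKM or more. The pyruvate kinase gene Pkm was highest at 274 ± 39.6 FPKM (SD, n = 3), before Ldha at 117 ± 8.68, Aldoa at 87.0 ± 19.7, Gpi1 at 68.4 ± 7.88, Pgk1 at 63.3 ± 13.6, Taldo1 at 61.1 ± 11.4 and Eno1 at 58.4 ± 4.28 FPKM. Below Aldoa the order of these neighbours is within their spread. In GOF libraries Pkm and Ldha led again at 247 ± 13.4 and 123 ± 10.5 FPKM (SD, n = 4), whereas Eno1 stood at 20.7 ± 1.28 FPKM.

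Glucose enters T cells mainly through GLUT1, encoded by Slc2a1, and GLUT3, encoded by Slc2a3, and neither gene passed the test. Slc2a1 (chromosome 4, 119108711 to 119137983 on mm10) had 39.9, 72.6 and 44.6 CPM in WT and 48.0, 50.3, 57.4 and 49.5 CPM in GOF. All GOF values lay inside the WT range, with -0.029 on the log2 scale (95% interval -0.47 to 0.41, edgeR adjusted p = 0.923), and the sign turned under several settings, among them total-count scaling at 0.048. Slc2a3 had 57.3, 116 and 51.5 CPM in WT and 45.2, 51.6, 44.0 and 48.7 CPM in GOF. Here the groups touched at the lowest WT library, and the log2 fold change of -0.66 (SE 0.25) missed the threshold at an edgeR adjusted p of 0.0769. Without WT replicate 2, the highest library, it was -0.20 at an adjusted p of 0.217.

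Hexokinase traps glucose as glucose 6-phosphate. Hk1, the constitutive form, had 192 to 203 CPM in WT and 123 to 209 CPM in GOF, with a log2 fold change of -0.21 that did not pass. Hk2 (chromosome 6, 82725025 to 82774454), the form induced in activated T cells, was near the lower limit of the data at 1.22, 4.89 and 1.81 CPM in WT and 3.58, 1.79, 2.83 and 1.61 CPM in GOF. Its groups overlapped fully and the interval of the log2 fold change of -0.11 was wide, from -1.26 to 1.04, which takes in 2-fold changes in both directions.

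Gpi1 encodes glucose-6-phosphate isomerase, which turns glucose 6-phosphate into fructose 6-phosphate and so stands where glycolysis and the pentose phosphate pathway part. It lies on chromosome 7, minus strand, 34201330 to 34230336. WT libraries had 739, 603 and 598 CPM, and GOF libraries had 344, 333, 365 and 398 CPM. Every GOF value was far below every WT value, and the fall was 1.80-fold (log2 fold change -0.85, SE 0.10, edgeR adjusted p = 0.000417). The processed pseudogene Gm1840, 97.65% identical over 86.3% of the Gpi1 coding sequence, held 7.42% to 9.36% of the joint counts and moved alike, from 59.2 ± 2.58 CPM in WT to 33.2 ± 3.24 CPM in GOF (SD, n = 3 and 4).

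Phosphofructokinase-1 commits sugar to glycolysis and is built from liver (Pfkl), muscle (Pfkm) and platelet (Pfkp) subunits. Pfkl (chromosome 10, minus strand, 77986947 to 78010083) had 89.7, 125 and 90.2 CPM in WT and 54.2, 55.7, 55.6 and 61.9 CPM in GOF. The GOF libraries were tightly spaced below all WT libraries, a fall of 1.79-fold (log2 fold change -0.84, SE 0.13, edgeR adjusted p = 0.0016). Pfkm, at 21.7 to 33.2 CPM in WT and 29.4 to 30.7 CPM in GOF, and Pfkp, at 70.9 to 144 CPM and 93.3 to 121 CPM, overlapped between groups with log2 fold changes of 0.16 and 0.11. Parts of the Pfkm and Pfkp loci overlap Senp1 and Pitrm1, which have many counts of their own, so reads there may be shared.

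The PFKFB enzymes make and remove fructose 2,6-bisphosphate, the activator of phosphofructokinase-1. Pfkfb4 (chromosome 9, plus strand, 108991778 to 109032228) had 10.3, 18.4 and 10.9 CPM in WT and 8.40, 6.45, 6.86 and 7.14 CPM in GOF. The groups did not overlap, but the gap was narrow, with a fall of 1.83-fold (log2 fold change -0.87, SE 0.23, edgeR adjusted p = 0.019), and without WT replicate 2 the value was -0.56 at an adjusted p of 0.0533. Pfkfb3 had 21.0, 41.6 and 23.0 CPM in WT and 28.8, 28.8, 68.5 and 25.3 CPM in GOF. Its log2 fold change of 0.41 (SE 0.38) came from the single high library GOF 3: without GOF 3 it was -0.040. Pfkfb2, at 6.39 to 13.0 CPM in WT and 9.32 to 16.2 CPM in GOF, did not pass, and its locus shares 7032 bases with Yod1, so reads there may belong to either gene.

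Aldolase splits fructose 1,6-bisphosphate into trioses. Aldoa (chromosome 7, minus strand, 126795234 to 126800751) had 489, 668 and 435 CPM in WT and 339, 331, 379 and 359.6 CPM in GOF. All GOF values were lower, a fall of 1.51-fold (log2 fold change -0.59, SE 0.14, edgeR adjusted p = 0.0115). Without WT replicate 2, the highest library, the log2 fold change was -0.39 (edgeR adjusted p = 0.0142). The call was lost with 2 libraries fewer, at -0.63 and an adjusted p of 0.0565 without GOF replicates 1 and 3 and at -0.55 and 0.0775 without GOF replicates 2 and 4. Aldoc was scarce at 2.44 to 3.97 CPM in WT and 1.22 to 3.00 CPM in GOF and did not pass.

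Triose-phosphate isomerase, encoded by Tpi1, interconverts the trioses. Tpi1 had 44.3, 86.3 and 33.8 CPM in WT and 31.2, 30.2, 33.9 and 32.0 CPM in GOF. The groups met at WT replicate 3, and the log2 fold change of -0.78 (SE 0.27) ended just outside the threshold at an edgeR adjusted p of 0.0539, and without WT replicate 2 it was -0.30 at an adjusted p of 0.132. Gapdh, the gene of the next enzyme, had 59.0 to 86.1 CPM in WT and 77.3 to 92.2 CPM in GOF (log2 fold change 0.21, not past the threshold). Its level per length was only 8.05 FPKM in WT and 9.84 FPKM in GOF, below that of Pgk1 by several fold. The annotation holds 160 near-identical copies of Gapdh, of which 11 were in the table and 9 had counts, so reads of this gene may have been lost or divided and its value is uncertain.

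The largest change of the pathway was at enolase, which makes phosphoenolpyruvate. Eno1 (chromosome 4, plus strand, 150236721 to 150248879), the main form outside muscle and neurons, had 518, 452 and 451 CPM in WT and 159, 145, 166 and 168 CPM in GOF. The libraries of each group were close together and far from the other group, and the fall was 2.97-fold (log2 fold change -1.57, SE 0.088, 95% interval -1.77 to -1.37, edgeR adjusted p = 6.21e-06). Over the 17 other settings tried the log2 fold change stayed between -1.61 and -1.45 and always passed. The neuronal form Eno2, at 1.46 to 2.41 CPM in WT and 1.37 to 1.54 CPM in GOF, and the muscle form Eno3, at 24.5 to 28.4 CPM and 20.8 to 25.0 CPM, overlapped between groups.

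Eno1b, a protein-coding gene whose transcript is 99.39% identical to the whole Eno1 coding sequence, fell by almost the same amount. It had 119, 147 and 118 CPM in WT and 40.2, 46.4, 48.2 and 43.4 CPM in GOF, with no overlap and a fall of 1.52 ± 0.11 on the log2 scale (SE, edgeR adjusted p = 2.42e-05). Its share of the joint counts was 18.6% to 24.6% over the 7 libraries. How reads that fit both genes were assigned is not given in the sources used here, so the split between Eno1 and Eno1b is uncertain, while their sum was lower in every GOF library. The calls of all 7 lower genes held when each member was summed with its copies. Hif1a, Pfkl, Pfkfb4 and Pdk2 had no such copy, and copies held 0.051% of the joint counts of Aldoa. Among the lower genes the sum could therefore matter only for Eno1 and Gpi1. Pgam1, whose pseudogene Pgam1-ps2 is 100% identical, went from a log2 fold change of 0.024 to -0.011.

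**Figure D2:**
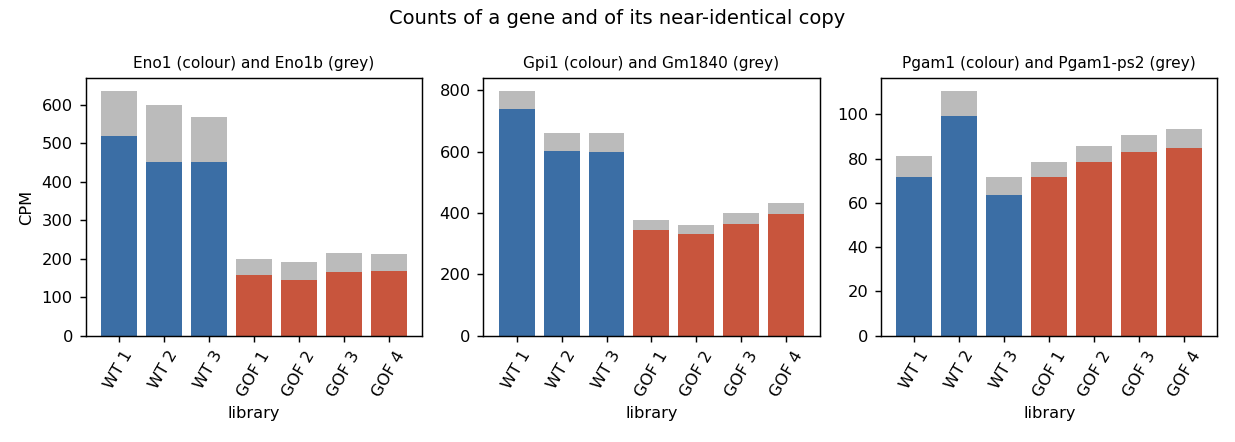
Stacked bars give the CPM of Eno1, Gpi1 and Pgam1 (blue in WT, red in GOF) and of a near-identical copy of each (grey) in the 7 libraries. Gene and copy are lower together in every GOF library for Eno1 with Eno1b and for Gpi1 with Gm1840, while the Pgam1 bars of both groups overlap.

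The other genes of lower glycolysis did not pass. Pgk1, for phosphoglycerate kinase, had 169.9 to 249 CPM in WT and 147 to 179 CPM in GOF, and Pgam1, for phosphoglycerate mutase, had 63.4 to 99.4 CPM and 71.5 to 85.0 CPM. Pkm, for pyruvate kinase, had 655 to 859 CPM in WT and 586 to 674 CPM in GOF, with a log2 fold change of -0.22 (95% interval -0.47 to 0.02).

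Of the 4 genes of lactate production and export 0 were called, beside 31.3% of all genes tested. So few genes cannot be set apart from that share. Ldha (chromosome 7, plus strand, 46841475 to 46855627), the lactate dehydrogenase subunit that favours lactate, had 579, 578 and 498 CPM in WT and 533, 514, 543 and 626 CPM in GOF. The groups lay on top of each other, and the interval of the log2 fold change of 0.0055 ran from -0.21 to 0.22, which does not reach the changes of Eno1 and Gpi1. Ldhb, the other subunit gene, had 29.1 to 32.3 CPM in WT and 30.5 to 34.4 CPM in GOF, and the exporter gene Slc16a1 (MCT1) had 27.5 to 30.2 CPM and 25.9 to 31.3 CPM. Slc16a3, for the exporter MCT4, had 1.29, 16.9 and 1.39 CPM in WT and 7.22, 4.92, 6.74 and 6.24 CPM in GOF. All GOF libraries lay between the single high WT library and the 2 low ones. Its log2 fold change was -0.062 with all libraries and 2.21 without WT replicate 2, where it passed at an edgeR adjusted p of 0.00133.

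Pyruvate dehydrogenase kinases switch off pyruvate dehydrogenase and so hold pyruvate back from mitochondria. Pdk2 (chromosome 11, minus strand, 95026258 to 95041354) had 28.2, 27.1 and 27.5 CPM in WT and 12.4, 14.8, 16.4 and 14.1 CPM in GOF. WT values were nearly equal and all GOF values were about as far below them, a fall of 1.91-fold (log2 fold change -0.94, SE 0.13, edgeR adjusted p = 0.000799). Pdk1, by far the most abundant of these genes per length at 33.2 FPKM in WT, had 320.4 to 444 CPM in WT and 371 to 452 CPM in GOF, and Pdk3 had 15.4 to 20.6 CPM and 18.7 to 21.9 CPM. Neither passed, with log2 fold changes of 0.097 and 0.092.

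Hif1a, the gene of the oxygen-regulated subunit of HIF-1, lies on chromosome 12, plus strand, at 73901375 to 73947530. It had 198, 336 and 215 CPM in WT and 117, 131, 102 and 98.9 CPM in GOF. All GOF libraries were below the lowest WT library, a fall of 2.23-fold (log2 fold change -1.16, SE 0.18, edgeR adjusted p = 0.00175). The call held in all 17 other settings, with log2 fold changes of -1.30 to -0.88. Transcript levels do not show the amount of HIF-1alpha protein.

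**Figure D3:**
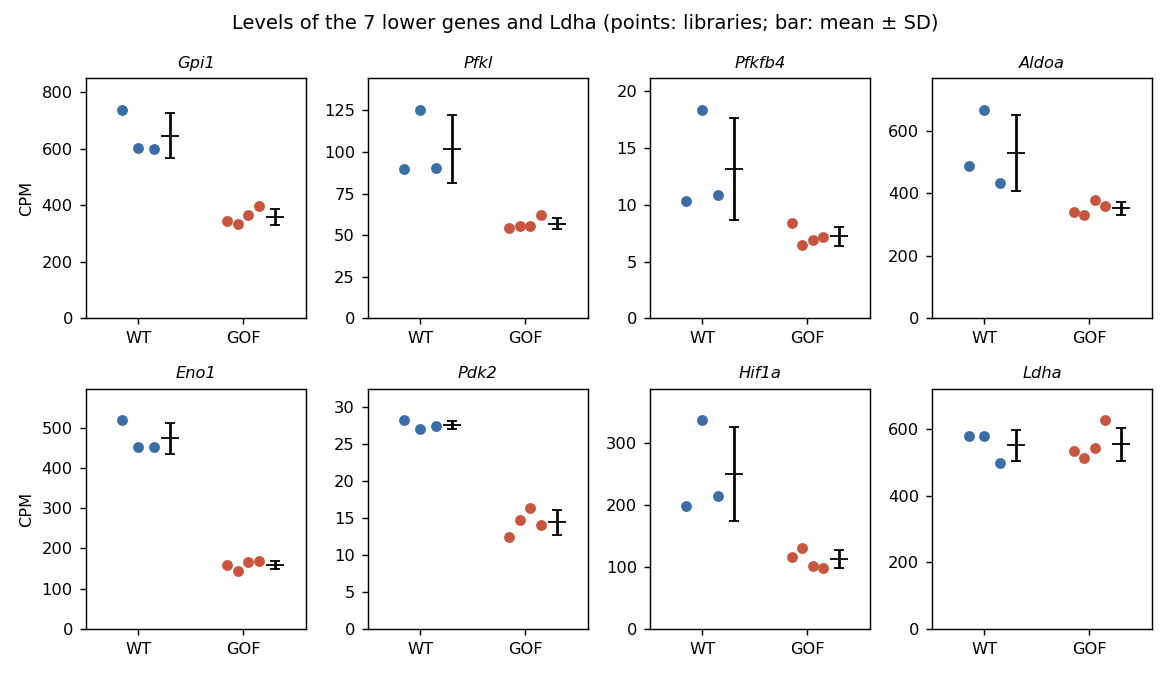
CPM of the 7 genes that fell and of Ldha for comparison, 1 point per library (blue WT, n = 3, red GOF, n = 4), with the mean ± SD beside the points and each axis starting at 0. The 2 groups are apart in all 7 panels of lower genes and overlap for Ldha.

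In the pentose phosphate pathway 0 of 6 genes passed the edgeR test with TMM scaling and all libraries, beside 31.3% of all genes tested. With only 6 genes, a count of 0 does not set this pathway apart from that share. Of these, 1, Pgd, was higher at an unadjusted p under 0.05 and was the 1 called by limma, while DESeq2 called none. G6pdx (chromosome X, minus strand, 74409483 to 74429194), for the rate-limiting glucose-6-phosphate dehydrogenase, had 64.9, 55.2 and 56.3 CPM in WT and 55.5, 49.4, 57.1 and 54.5 CPM in GOF. The groups overlapped, with a log2 fold change of -0.12 (95% interval -0.35 to 0.11), and its locus shares 19712 bases with Ikbkg. Pgd, for 6-phosphogluconate dehydrogenase, had 88.9 to 106 CPM in WT and 106 to 113 CPM in GOF, 0.22 ± 0.091 on the log2 scale (SE, edgeR adjusted p = 0.101). Scaling by total counts moved the median of all genes from 0.0061 to 0.082 and Pgd to 0.29, past the threshold. Pgls, of the oxidative branch, and Tkt, Taldo1 and Rpia, of the branch that exchanges sugar carbons with glycolysis, had log2 fold changes of -0.15, -0.19, 0.066 and 0.0049, and their groups overlapped.

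**Figure D4:**
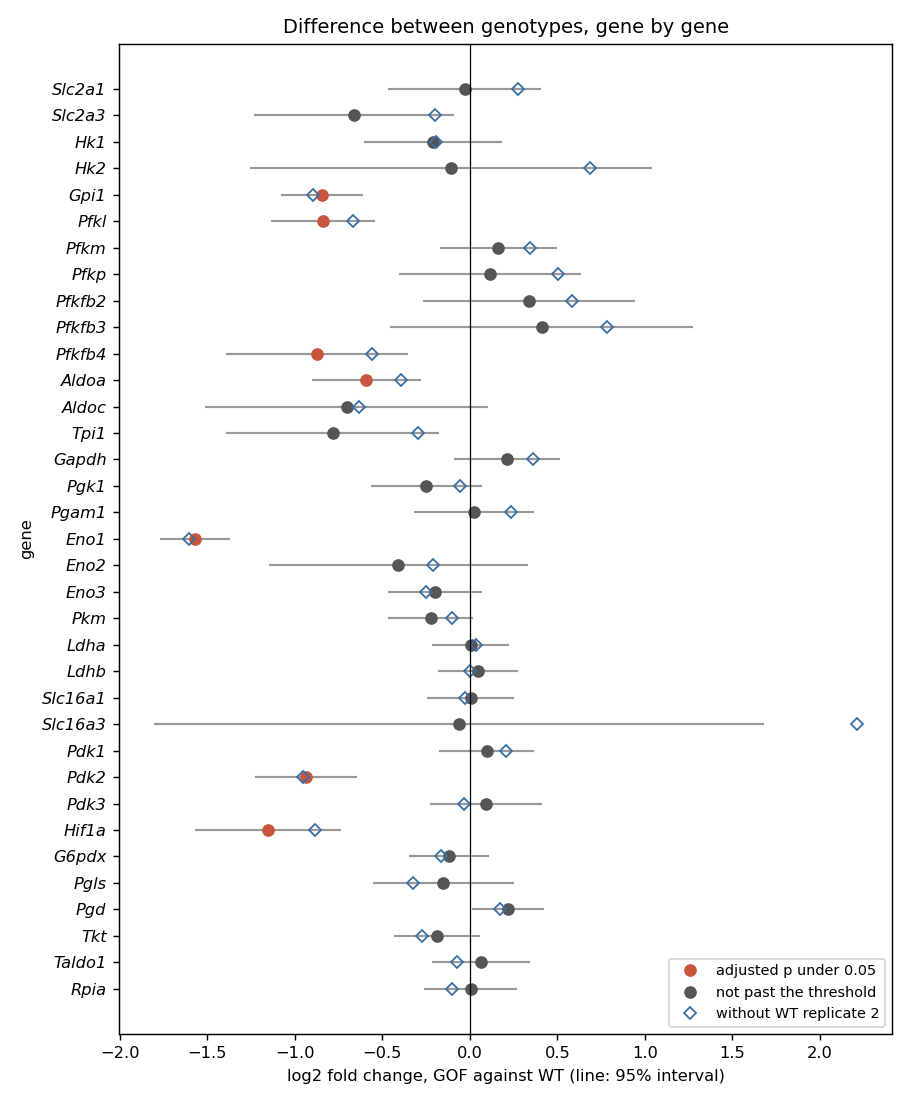
Log2 fold change of each gene, GOF against WT, with its 95% interval (points, red where the adjusted p is under 0.05) and the value without WT replicate 2 (open diamonds). Intervals of the 7 red points end below 0, Ldha and the pentose phosphate genes cluster near 0, and the diamond of Slc16a3 stands apart at 2.21.

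Since several steps are encoded by sister genes, 13 ratios between them were compared as log2 ratios of FPKM with a pseudocount of 0.1. In 8 ratios the groups did not overlap, which gives the smallest 2-sided exact permutation p that 3 against 4 libraries allow, 0.0571 (0.0929 after Benjamini-Hochberg adjustment over 13), so none could pass 0.05. The ratio of Eno3 to Eno1 went from -2.84 ± 0.031 (SD, n = 3) to -1.47 ± 0.072 (SD, n = 4), a difference of 1.37, and that of Eno2 to Eno1 differed by 1.31. Pdk1 relative to Pdk2 was 1.96 to 2.48 in WT and 3.14 to 3.61 in GOF, and Pdk3 relative to Pdk2 was -0.44 to -0.089 and 0.54 to 1.01. Pfkp and Pfkm relative to Pfkl differed by 1.00 each, Slc2a1 relative to Slc2a3 by 0.57 and Pfkfb4 relative to Pfkfb3 by -1.09. In 7 of these 8 ratios one side is a gene that had already passed the test on its own, so they restate that fall. Ratios of Hk2 to Hk1, Pfkfb3 to Pfkfb2, Aldoc to Aldoa, Ldhb to Ldha and Slc16a3 to Slc16a1 overlapped between groups.

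Promoter sequences were read from RefSeq for 34 of the 35 genes (all but Slc2a3) as the 250 bases upstream of a transcript start on GRCm38.p6. They are shown for 3 of the genes called lower in every setting tried, Eno1, Gpi1 and Pdk2, and for Ldha, which did not, so that the letters of HIF-type sites can be compared, 5′ to 3′ on the gene's strand. Capitals mark GCGTG or ACGTG on either strand, so that CACGTG, which reads the same on both strands, counts as a pair of ACGTG matches. The windows are chr4:150236458-150236707 (plus strand) for Eno1, chr7:34230337-34230586 (minus strand) for Gpi1, chr11:95041372-95041621 (minus strand) for Pdk2 and chr7:46845554-46845803 (plus strand) for Ldha.
Eno1: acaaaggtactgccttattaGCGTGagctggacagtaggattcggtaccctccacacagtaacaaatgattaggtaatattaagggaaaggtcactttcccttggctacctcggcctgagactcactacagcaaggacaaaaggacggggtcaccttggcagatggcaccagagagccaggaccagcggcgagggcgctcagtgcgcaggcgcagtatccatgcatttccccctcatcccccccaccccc
Gpi1: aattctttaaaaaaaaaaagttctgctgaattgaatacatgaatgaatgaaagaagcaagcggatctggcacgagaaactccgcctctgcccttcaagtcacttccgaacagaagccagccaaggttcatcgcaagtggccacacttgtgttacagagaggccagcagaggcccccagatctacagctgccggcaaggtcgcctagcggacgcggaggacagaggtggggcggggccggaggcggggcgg
Pdk2: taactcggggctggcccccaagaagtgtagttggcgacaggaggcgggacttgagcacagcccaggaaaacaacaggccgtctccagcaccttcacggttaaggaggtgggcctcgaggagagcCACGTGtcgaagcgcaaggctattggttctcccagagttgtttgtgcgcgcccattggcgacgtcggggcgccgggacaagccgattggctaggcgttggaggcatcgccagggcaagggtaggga
Ldha: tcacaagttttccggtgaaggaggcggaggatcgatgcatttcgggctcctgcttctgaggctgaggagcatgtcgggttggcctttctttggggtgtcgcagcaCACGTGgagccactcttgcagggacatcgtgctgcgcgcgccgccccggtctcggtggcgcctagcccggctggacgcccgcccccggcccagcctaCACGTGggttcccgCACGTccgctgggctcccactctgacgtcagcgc
The Eno1 window has 1 GCGTG, the Gpi1 window has none of these letters, and the Pdk2 window has 1 CACGTG. The Ldha window has 5 ACGTG matches, 4 of them in 2 CACGTG, the most of the 34 windows. Its transcript start lies 4329 bases inside the deposited locus. Of the genes lower in every setting that are not shown, Hif1a has 3 ACGTG matches, with 1 CACGTG, and Pfkl has 1 GCGTG. The Hif1a start lies 6492 bases inside its locus. Over the members, ACGTG was found in 12 of 34 windows, 2 of 7 of the genes that fell and 10 of 27 of the others, beside 16.6% of 32851 promoters. GCGTG was found in 20 of 34, 3 of 7 and 17 of 27, beside 28.2%, and CACGTG in 5 of 34, 2 of 7 and 3 of 27, beside 6.02%. Either ACGTG or GCGTG was in 5 of 7 windows of the genes that fell and in 23 of 27 of the others, beside 38.6% of all promoters. Both runs hold the letters CG, and the share of G and C in the member windows ran from 36.4% for Pfkm to 76.4% for Slc16a1. The set of all promoters was not matched for that share, so the percentages do not show an excess of such sites. A match is a run of letters, not a measured binding site.

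HIF regulators and HIF targets outside the pathway were listed beside Hif1a. Of 22 genes 21 were tested, 3 rose and 8 fell, with a median log2 fold change of -0.47. This makes 52.4% called, beside 31.3% of all genes, 16.8% higher and 14.5% lower. The 6 with the smallest p were Ndrg1, a stress-response gene, from 87.2 ± 14.5 to 23.6 ± 2.19 CPM, P4ha1, a collagen prolyl hydroxylase subunit, from 135 ± 12.9 to 49.2 ± 7.29 CPM, Mxi1, a MYC antagonist, from 72.1 ± 2.38 to 29.1 ± 2.32 CPM, Kdm3a, a histone demethylase, from 204 ± 40.4 to 94.4 ± 6.74 CPM, and, upwards, Ddit4 and Hif3a (mean ± SD, n = 3 and 4). Ddit4, which encodes an inhibitor of mTORC1 and is also a target of other factors, had 26.0, 33.9 and 14.8 CPM in WT and 142, 167, 152 and 169 CPM in GOF, a rise of 6.34-fold (SE 0.25 on the log2 value of 2.66, edgeR adjusted p = 8.54e-05). Hif3a, a HIF family member, stayed at low levels, 0.374 ± 0.107 and 3.22 ± 0.930 CPM. The named targets, picked by smallest p, went in both directions, 4 down with Hif1a and Ddit4 up. Of all 13 tested targets outside the pathway, 2 rose, 5 fell and 6 did not pass.

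WT replicate 2 stood apart from the other WT libraries in these genes, which was seen after the values were known and is given as a description. In this library 9 of the 35 members (25.7%) were at least 1.5-fold above both other WT libraries, beside 4.74% of all genes tested: Hif1a, Hk2, Pfkfb3, Pfkfb4, Pfkp, Slc16a3, Slc2a1, Slc2a3 and Tpi1. Relative to the mean of the other WT libraries, Slc16a3 was 9.46-fold, Hk2 2.67-fold, Tpi1 2.20-fold and Slc2a3 2.13-fold higher there on a CPM + 0.5 scale. No member reached that limit in WT 1 or WT 3. WT 2 was the highest of the WT libraries for 20 members (57.1%), beside 38.9% of all genes, and for 10 of 13 tested HIF targets outside the pathway, of which Vegfa, Bnip3 and Ankrd37 were at least 1.5-fold above both. The pentose phosphate genes G6pdx, Pgls, Tkt, Taldo1 and Rpia were lowest in this library among WT.

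Values without WT replicate 2 separate the genes that rest on it. Gpi1, Pfkl, Aldoa, Eno1, Pdk2 and Hif1a were again called lower, and Pfkfb4 was not. Of these, Aldoa shrank from -0.59 to -0.39, Pfkl from -0.84 to -0.67 and Hif1a from -1.16 to -0.88. Gpi1, Eno1 and Pdk2 did not shrink, at -0.90, -1.61 and -0.95 without this library. Pfkp, at 0.51 on the log2 scale (edgeR adjusted p = 0.0166), and Slc16a3 were then called higher, while Slc2a1 was at 0.28 and Hk2 at 0.69 without passing. Slc2a3 went from -0.66 to -0.20 and Tpi1 from -0.78 to -0.30. What set this library apart was not tested.

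**Figure D5:**
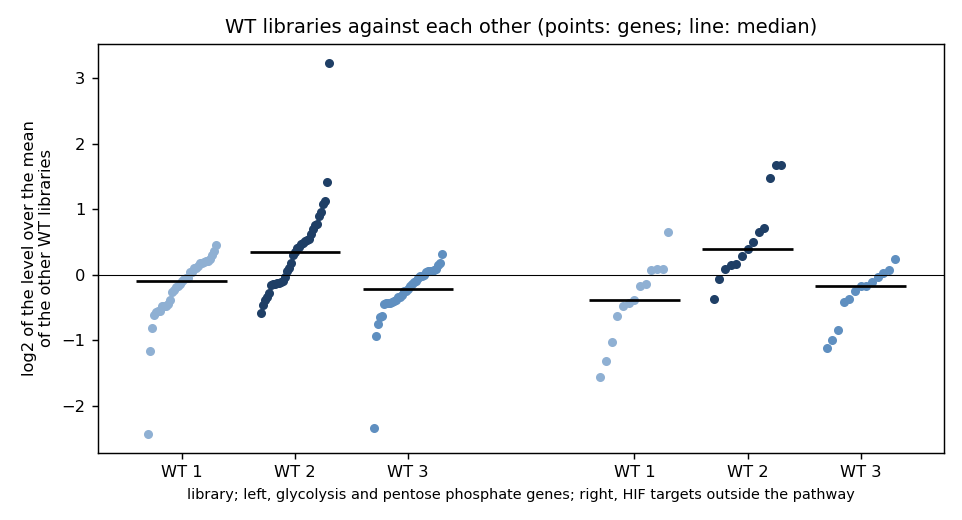
Each point is a gene in 1 WT library, plotted as the log2 of its level over the mean of the other WT libraries, with the median as a line, for the 35 members (left) and 13 HIF targets outside the pathway (right). WT 2 has the highest median in both lists and holds the genes farthest above 0, led by Slc16a3.

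GOF replicates 1 and 3 were both above replicates 2 and 4 in 8 of 35 members (22.9%, beside 25.3% of all genes) and both below in 4 (11.4%, beside 23.6%). The 8 were G6pdx, Hk2, Pdk1, Pfkfb3, Pgls, Slc16a3, Taldo1 and Tkt, and the 4 were Eno2, Pfkl, Pgd and Slc2a3. Of the 7 lower genes only Pfkl was among these 12, with GOF 1 and 3 below GOF 2 and 4. Without GOF replicates 1 and 3, Eno1, Gpi1, Hif1a, Pdk2 and Pfkl were again called lower, and Aldoa (-0.63) and Pfkfb4 (-0.96) were not, although their log2 fold changes were no smaller than with all libraries. The same 2 calls were lost without GOF replicates 2 and 4, where Pfkfb4 was at -0.78 (edgeR adjusted p = 0.114). Without GOF replicates 1 and 3, G6pdx was at -0.19, Pgls at -0.33, Tkt at -0.31 and Taldo1 at 0.0027. Without GOF replicates 2 and 4 these genes were at -0.049, 0.015, -0.070 and 0.13, and no value passed.

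Of 70 further genes of these pathways, 49 were tested, 9 rose and 11 fell, with a median log2 fold change of 0.062. This makes 40.8% called, beside 31.3% of all genes. Adpgk, an ADP-dependent glucokinase of the endoplasmic reticulum, fell from 190.3 ± 27.3 to 96.0 ± 7.17 CPM (mean ± SD, n = 3 and 4, a fall of 1.98-fold, edgeR adjusted p = 0.000257). Pygb, a glycogen phosphorylase, fell from 170.1 ± 13.5 to 116 ± 5.94 CPM, and Pgm2l1, which makes glucose 1,6-bisphosphate, from 35.9 ± 10.2 to 16.1 ± 2.74 CPM. Ldhd, for D-lactate dehydrogenase, rose from 3.73 ± 0.898 to 12.1 ± 2.40 CPM, Galm, for the epimerase that interconverts the anomers of aldoses, from 8.34 ± 0.681 to 17.8 ± 2.45 CPM, and Slc16a10, a transporter of aromatic amino acids in the MCT family, from 6.09 ± 1.69 to 15.5 ± 1.40 CPM. All 10 genes of the glycogen and phosphoglucomutase group were tested, of which 2 rose and 4 fell.

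Among 11 regulators of glucose uptake and glycolytic genes 9 were tested, 2 rose and 1 fell, or 33.3% called, which is close to the 31.3% of all genes. Foxo1, whose protein is excluded from the nucleus by AKT, rose from 252 ± 31.5 to 582 ± 50.8 CPM, or 2.31-fold (edgeR adjusted p = 8.7e-05). Mlx, the partner of the glucose-sensing MondoA and ChREBP proteins, rose 1.91-fold from 41.9 ± 13.1 CPM in WT, and Myc, whose product raises transcription of many glycolytic genes, fell from 222 ± 42.9 to 86.4 ± 10.1 CPM, or 2.57-fold (edgeR adjusted p = 0.000178). Myc was lower in GOF, as were Hif1a, Eno1, Gpi1, Pfkl, Aldoa, Pdk2 and Pfkfb4, while Ldha and Slc2a1 were not shown to differ. A link between Myc and the levels of these genes was not tested.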

How the data were processed

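The deposited table gives, for each library, whole-number raw counts and FPKM values of every gene beside its Ensembl identifier, symbol and locus. According to the labels and, for tools, per the submitters' processing notes, HISAT2 2.0.4, Cufflinks 2.1.1, Cuffdiff and the build mm10 were used. How reads were counted, whether strand was used and how reads with several matches were handled is not given in the sources used here. An FPKM of the authors equals the count divided by a fixed gene length and the column total, within 0.1% for 100% of values. Groups came from sample titles and columns from sample descriptions. Each library has its own number within its group in the sample title, and the libraries were treated as separate mice. Counts were tested with edgeR 4.0.16 (quasi-likelihood, filterByExpr, TMM, Benjamini-Hochberg at 0.05 over 12668 genes, R 4.3.3). The steps were tested on simulated data in which few genes changed, as many up as down. That test does not cover the choice of scaling for data with as many changes as these. CPM and the SE, from the fold change and the F statistic, were computed here. Alternatives were other scalings, DESeq2 1.42.0, limma 3.58.1 on log2(FPKM + 1), no filter, a replicate block and libraries left out. Copies were found by aligning coding sequences to GENCODE M21 transcripts, at 90% identity over 50% of the coding sequence. Intervals cover the spread between libraries. The members and lists were chosen with earlier results of these data known. Per-library values are given for members past the threshold and for Slc2a1, Hk2, Ldha, G6pdx and Hif1a, and, of each other list, for up to 6 genes past the threshold with the smallest p as means. Slc2a3, Tpi1, Pfkfb3, Slc16a3 and Eno1b were added after their values were seen.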

Additional observations from a re-analysis of the deposited data

Results flagged for a closer look

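Pfkfb3 had 68.5 CPM in GOF replicate 3, while the other GOF libraries had 25.3 to 28.8 CPM. The gap to the nearest library was 0.919 of the range of the group, above Dixon's limit of 0.829 for 4 values. Among the 35 genes tested in this way it was the only such library. Chance gives such a library in about 1 in 20 genes, so 1 among 35 genes is not unusual. No WT library reached this level, the highest being WT replicate 2 at 41.6 CPM.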

How the results depend on the processing

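Eno1, Gpi1, Hif1a, Pdk2 and Pfkl were called lower in all 17 alternatives, Aldoa in 15 and Pfkfb4 in 13. Members called lower numbered 7, and 6 to 9 when 1 library was left out. Members called higher numbered 0, 1 by total counts, upper quartile or limma, and 0 to 2 with 1 library left out. Counts over all genes of 2130 higher and 1838 lower became 2527 and 1428 by total counts, 2491 and 1442 by upper quartile, 2598 and 1390 by limma, and 1074 and 1050 without GOF replicates 1 and 3. The other pathway lists, 14 higher and 20 lower, gave 9 higher under the replicate block, 8 higher and 12 lower without GOF replicates 1 and 3, 13 lower without GOF 2 and 4, and 9 to 14 higher with 1 library left out. Same-numbered libraries did not deviate together (r = 0.030, 0.091 and -0.068). Deviations from the means of so few libraries cannot exclude a pairing by number. The replicate block, without GOF 4, called 6 members lower and none higher, with 1646 genes higher and 1549 lower. Summing members with their copies was added after the data were seen and moved Pgam1 to -0.011. It left the counts of members without copies unchanged, among them Hif1a, Pdk2, Pfkl and Pfkfb4. Members near 0 changed sign, and so did Pfkfb3, which was at 0.41 with all libraries. Slc2a1 was 0.048 by total counts, 0.052 by upper quartile, 0.082 by limma, 0.028 under the block and 0.021 without GOF 2 and 4. Hk2 was 0.0052, 0.23 and 0.29 by limma, block and without GOF 2 and 4, and Slc16a3 was 0.018, 0.027, 0.15, 0.93 and 0.10 by total counts, upper quartile, limma, block and without GOF 2 and 4. Without GOF 2 and 4, Pgam1 was -0.0042, Ldha -0.024 and Pgls 0.015, and under the block Ldha was -0.060 and Rpia -0.027. Without GOF 1 and 3, Pfkfb3 was -0.082, Slc16a1 -0.051, Pdk1 -0.0049 and Rpia -0.013. With 1 library left out, ranges were -0.20 to 0.28 for Slc2a1, -0.45 to 0.69 for Hk2, -0.074 to 0.51 for Pfkp, -0.040 to 0.78 for Pfkfb3, -0.11 to 0.23 for Pgam1, -0.067 to 0.043 for Ldha, -0.032 to 0.046 for Slc16a1, -0.55 to 2.21 for Slc16a3, -0.026 to 0.20 for Pdk1, -0.033 to 0.16 for Pdk3, -0.076 to 0.19 for Taldo1, -0.32 to 0.014 for Pgls and -0.10 to 0.067 for Rpia. Among ratios, Aldoc to Aldoa was 0.28 and 0.18 with pseudocounts 1 and 0.5 and -0.24 to 0.19 with 1 library left out, Hk2 to Hk1 -0.17 without GOF 1 and 3 and -0.049 to 0.68, Pfkfb3 to Pfkfb2 -0.50 without GOF 1 and 3 and -0.41 to 0.23, and Ldhb to Ldha -0.039 to 0.14. The cause was not tested. Few counts limit Hk2, Eno2 and Aldoc, with 269, 173 and 276 over all libraries. Slc16a3, with 681 counts, was at 2.21 without WT replicate 2.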
